A study of Mus musculus with 12 samples.

Results

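The genes described here are those of the eukaryotic translation initiation factors and of the kinases and binding proteins that regulate them, in mouse embryonic stem cells that lose the transcription factor Ronin, which Thap11 encodes. They were chosen by name, as all genes whose symbol in the platform annotation begins with Eif1, Eif2, Eif3, Eif4, Eif5 or Eif6, read by a probe set that carries a single symbol. For each gene the brightest such probe set over all arrays was used. This gave 47 of 18194 genes, of which 40 are factors, 4 are kinases of the eIF2 alpha subunit and 3 are binders of eIF4E. The choice used symbols and, among the probe sets of a gene, brightness, but no difference between groups, and it was made with earlier results of these data known. Of the other genes with such names, Eif1, Eif2s1, Eif3g, Eif4a3l1, Eif4e1b and Eif4g1 had no probe set named for them, and Eif3j1, Eif3j2 and Eif4ebp3 were read by probe sets that carry several symbols. These 9 genes were not counted as members.

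The knockout cells carried CreERT2 and Ronin flox/flox alleles and were collected 1.5, 3 or 6 days after the start of tamoxifen at 0.25 µM. The control cells carried the same Ronin flox/flox alleles without CreERT2 and had the same tamoxifen for the same times. CreERT2 is a Cre recombinase that enters the nucleus when tamoxifen binds it, and it then removes the gene segment between loxP sites. Both genotypes thus share the floxed alleles and the tamoxifen, and CreERT2 was present in all knockout samples and absent from all controls. An effect of CreERT2 itself, or of the line, and the loss of Ronin cannot be told apart. The promoter that drives CreERT2 and the number of clones are not given in the sources used here. Cells were replated on day 4, before the last collection, and each of the 6 groups had 2 arrays.

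Initiation is the step at which a ribosome is placed on the start codon of an mRNA. The GTP-binding factor eIF2 brings the initiator tRNA to the small ribosomal subunit, eIF1, eIF1A and eIF3 hold this complex open for scanning, and the eIF4 group binds the cap of the mRNA and unwinds its leader. After start-codon recognition eIF5 and eIF5B drive GTP hydrolysis and joining of the large subunit, and eIF2B recharges eIF2 with GTP. Phosphorylation of eIF2 alpha by its kinases blocks this recharging, and the 4E-binding proteins, which mTORC1 phosphorylates, keep eIF4E away from eIF4G. Mouse embryonic stem cells are known for low overall protein synthesis compared with the cells they give rise to.

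RNA was measured on Affymetrix Mouse Genome 430 2.0 arrays, and all levels are RMA intensities on a linear scale. Intensities of different probe sets cannot be set against each other, so levels are compared between groups for 1 gene at a time. Within a group, the correlation of the 2 arrays over all genes was 0.99816 to 0.99856 on the log2 scale, and the SD of their log2 difference was 0.0502 to 0.104 over the 47 members. Thap11 itself read 327 and 354 in knockout cells, against 1262 and 1181 in controls on day 1.5, 110.2 and 92.7 in knockout cells, against 1279 and 1290.1 in controls on day 3, and 50.6 and 51.5 in knockout cells, against 1305 and 1382 in controls on day 6. The tests were limma fits over all 18194 genes, with Benjamini-Hochberg adjusted p under 0.05 as the threshold, and "rose" and "fell" are used of genes past it. Unless said otherwise, a signed value is a log2 fold change, knockout over control, and the value after ± is its standard error. Member intensities averaged over the 12 arrays ran from 9.61 for Eif2s3y to 18934 for Eif5a, and 2 members lay below the level of the dimmest 40% of genes (59.22). These were Eif2s3y and Eif4a3, whose tested probe set averaged 18.2, and their values say little about the genes. The probe sets of Eif1a, Eif3c, Eif3e, Eif3m, Eif4g2, Eif4h, Eif5a and Eif4ebp1 share probes with other transcripts.

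By day 6 many of the factors had moved by a small amount, more of them down than up. Of the 47 members, 14 fell and 6 rose on that day (42.6%), where 32.5% of all genes were called, 15.3% lower and 17.2% higher. The median log2 fold change, knockout over control, was -0.106 over the members and -0.001 over all genes, and 35 members lay below 0. Knockout arrays both lay below the control arrays for 30 members, both above them for 10, and overlapped with them for 7. The share of all genes with arrays apart in this way was not counted, so no excess is read from these numbers. The members are bright, with 31 of 47 in the brightest 10% of genes. With the dimmest 40% of genes left out, 25 of 45 members (55.6%) were called on day 6, close to the 54.4% of all genes. At that setting 42.2% of the members were lower and 13.3% higher, against 26.1% and 28.3% of all genes. The largest change was 1.59-fold, and the median size of the 20 called changes was 0.30 on the log2 scale. Of the other probe sets of these 20 members, 16 lay above the level of the dimmest 40% of genes, and 15 of the 16 had the sign of the tested one. On day 1.5 only 3 members passed, 2 higher and 1 lower, where 9.91% of all genes did, 5.93% higher and 3.98% lower. On day 3 the count was 7, 4 higher and 3 lower, where 23.4% of all genes were called, 13.3% higher and 10% lower, and the median over the members was 0.043 against 0.028 over all genes.

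**Figure D1:**
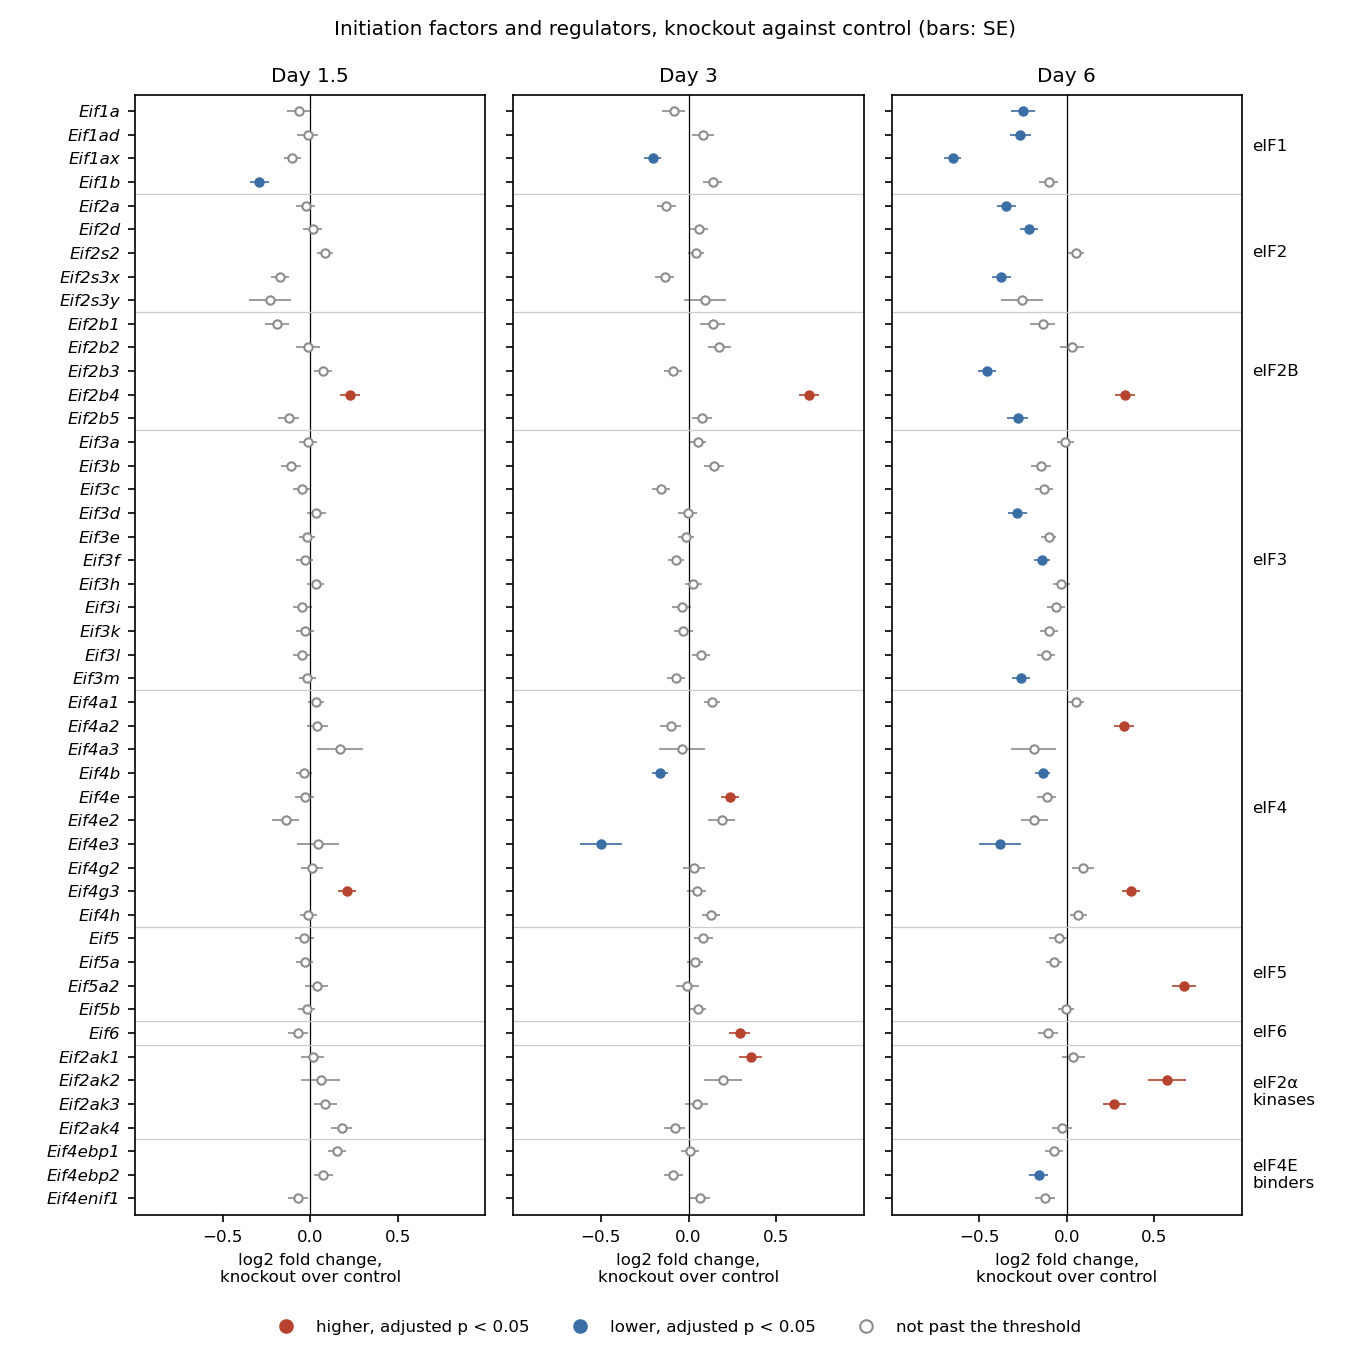
Log2 fold changes of the 47 members, knockout over control, on days 1.5, 3 and 6, with bars of 1 standard error. Filled points passed the adjusted threshold, and the 14 lower members of day 6 include 3 of the 4 eIF1-class genes, while all 11 eIF3 subunits lie to the left of 0.

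The controls of day 3 stood apart from those of the other days. Among control cells, 17 members were lower and 4 higher on day 3 than on day 1.5, where 27.3% of all genes were called, 18.2% lower and 9.12% higher. Between day 3 and day 6, 14 members were higher and 2 lower on the later day in controls, where 27.5% of all genes were called, 19.5% higher and 8.01% lower. Quantile normalization made this 11 higher and 5 lower, and these 2 comparisons share the day 3 control arrays. Eif2ak1, for example, had -0.49 in the first and 0.50 in the second. The members are bright, so the shares were also taken with the dimmest genes left out, as above. In the first comparison 37.8% of members were then lower and 8.89% higher, against 33.6% and 15.9% of all genes. In the second 33.3% were higher and 11.1% lower, against 35.9% and 12.6% of all genes. No marked excess of members in this dip is read from these shares. Day 6 and day 1.5 controls differed by limma in 0 of 47 members, where 1.57% of all genes were called, 1.09% higher and 0.473% lower, with 3 members at an unadjusted p under 0.05 and 3 called with a trended and robust eBayes setting. All arrays of day 3, knockout and control, also had higher median intensities over all probe sets (44.36 to 44.72) than the others (42.37 to 43.04). Over the genes tested their medians were lower instead, at 106.5 to 108.4 against 109.5 to 115.3. Values against the controls of days 1.5 and 6 are therefore given beside those of day 3 for the members called on that day.

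Markers of other cell types moved with the controls of day 3. Of 8 extraembryonic endoderm markers, 7 were lower in controls on day 3 than on day 1.5 (median log2 difference -0.802), and all 8 were higher on day 6 than on day 3 (0.905). Of all genes, 18.2% were lower in the first comparison and 19.5% higher in the second. The summed intensity of these markers in knockout cells was 3197 to 3248 on day 1.5, 2185 to 2262 on day 3 and 4446 to 4464 on day 6. In controls the sums were 4596 to 4671, 2461 to 2547 and 4728 to 4889 on the same days, so both genotypes were lowest on day 3. Fibroblast markers summed to 947 to 960, 988 to 1011 and 3506 to 3569 in knockout cells on days 1.5, 3 and 6. In controls they summed to 1878 to 1929, 679 to 724 and 2649 to 2870.3, with 3 of 10 lower on day 3 than on day 1.5. Trophoblast markers summed to 2487 to 2597, 1988 to 2099 and 6144 to 6202 in knockout cells, and to 3617 to 3679, 1168 to 1309 and 6331 to 6467 in controls. Embryonic stem cell markers summed to 67755 to 69976 in day 3 controls, against 66558 to 68464 in those of day 1.5. The part of such cells in the day 3 values of the initiation factors was not tested.

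Eif2ak1 and Eif6 show the pattern. Eif6, whose product binds the large ribosomal subunit and keeps it from joining too early, read 3918 and 3602 in knockout cells, against 3089 and 3049 in controls on day 3. On day 1.5 it had read 3565 and 3713 in knockout cells, against 3888 and 3746 in controls, and on day 6 3617 and 3485 in knockout cells, against 3767 and 3878 in controls. The day 3 controls were thus the low group, and knockout cells of day 3 lay near the controls of the other days. Against day 3 controls Eif6 rose by 0.29 ± 0.058 on the log2 scale (adjusted p = 0.0061), and against the controls of days 1.5 and 6 the value was -0.02 (adjusted p = 0.77). Its other probe set, averaging 139, gave 0.10 on day 3 with no call. Eif2ak1, the kinase HRI that responds to low heme, read 289 and 269 in knockout cells, against 230.1 and 207 in controls on day 3, and the controls read 313 and 299 on day 1.5 and 314 and 302 on day 6. It rose by 0.35 ± 0.065 against day 3 controls (adjusted p = 0.0042) and had -0.14 against the other controls (adjusted p = 0.11), and the mean over its probe sets on day 3 was 0.08 with no call. Of the 7 members called on day 3, Eif2ak1, Eif6, Eif4e and Eif1ax changed sign in that comparison. It called 17 members, 4 higher and 13 lower, and shared Eif2b4 with the 7. The largest fall there was that of Eif1a (-0.35, adjusted p = 0.0028), and the largest rise that of Eif2ak2 (0.34, adjusted p = 0.029). Of the 13 lower members, Eif1ad, Eif1b, Eif2b1, Eif2b5, Eif4g3 and Eif5b lay above 0 against day 3 controls, with no call.

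**Figure D2:**
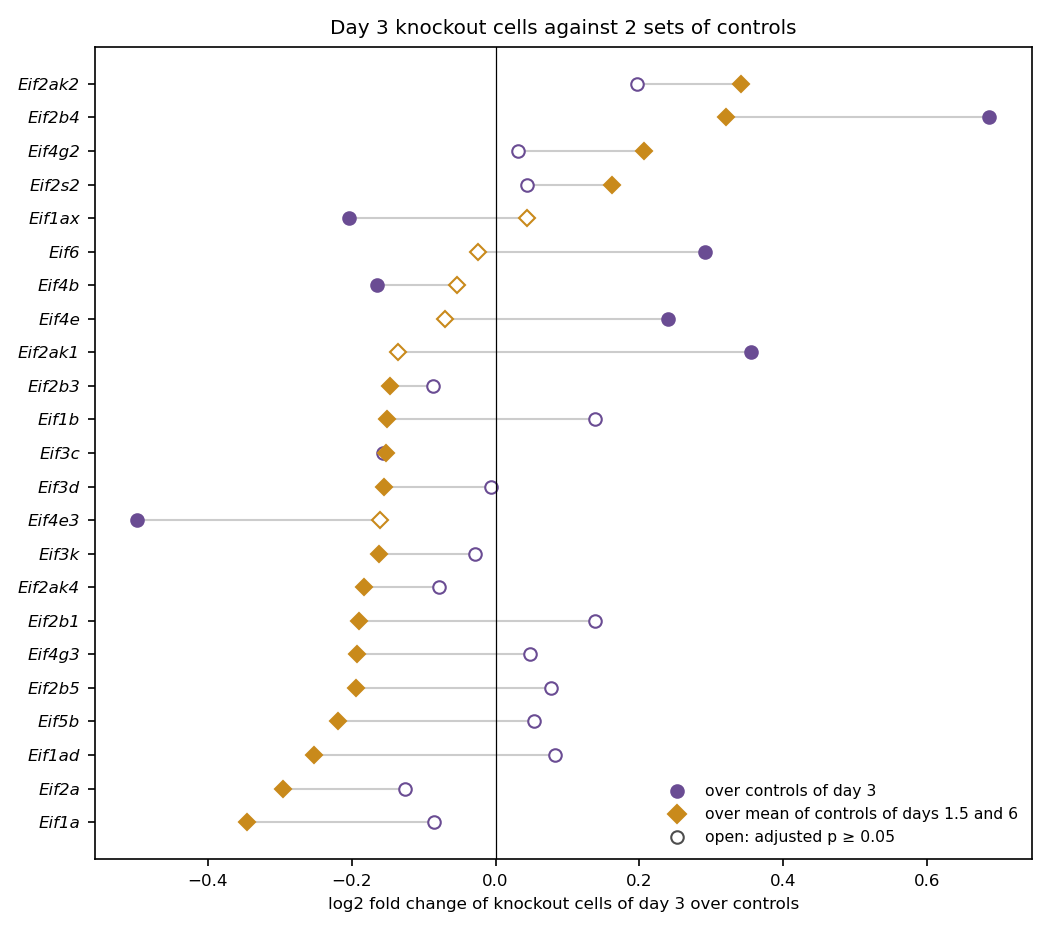
Log2 fold changes of knockout cells of day 3 over the controls of day 3 (circles) and over the averaged controls of days 1.5 and 6 (diamonds), for every member called in either comparison, with open symbols for values not called. Eif2b4 is filled in both. Among members called over the controls of day 3, the lines of Eif6, Eif4e, Eif2ak1 and Eif1ax cross 0. Among those called only over the other controls, the lines of Eif1ad, Eif1b, Eif2b1, Eif2b5, Eif4g3 and Eif5b do.

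The eIF1 class held the largest fall. Eif1ax, on chromosome X, encodes eIF1A, which binds the decoding site of the small subunit and takes part in scanning and start-codon choice. It read 4007 and 4100.4 in knockout cells, against 6439 and 6295 in controls on day 6, so the knockout arrays lay far below the control arrays. On day 3 it read 6479 and 6485 in knockout cells, against 7552 and 7377 in controls, and on day 1.5 5893 and 5683 in knockout cells, against 6279.6 and 6149.7 in controls. The log2 fold changes were -0.10 ± 0.048 on day 1.5, -0.20 ± 0.048 on day 3 and -0.65 ± 0.048 on day 6 (adjusted p = 0.24, 0.014 and 1.1e-05). The knockout effect was larger on day 6 than on day 3 by a test of the difference itself (-0.45 ± 0.068, adjusted p = 0.003). Within knockout cells, Eif1ax was also lower on day 6 than on day 1.5, with a log2 difference of -0.51. Its other probe sets, averaging 613 and 46.9, gave -0.90 and -0.70 on day 6 and both passed, but -0.06 and -0.10 on day 3 with no call. On day 3 the call was lost without control replicate 1 (-0.19) and without either knockout array (-0.20 each).

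Eif1a, an autosomal gene for a protein closely related to eIF1A, read 2495 and 2489 in knockout cells, against 3052 and 2879.9 in controls on day 6 and fell (-0.25 ± 0.067, adjusted p = 0.019). Eif1ad, a protein with an eIF1A-like domain, read 1538 and 1482 in knockout cells, against 1766 and 1862 in controls and fell (-0.26 ± 0.061, adjusted p = 0.0091). The groups did not overlap for either gene. Other probe sets, averaging 2132 for Eif1a and 559 for Eif1ad, gave -0.21 and -0.13 on day 6 with no call. A probe set averaging 87.3 that carries Eif1a and further symbols gave 1.16 and passed the other way. Eif1a lost its call without control replicate 1 (-0.21) and without either knockout array (-0.25 each), and Eif1ad lost it without control replicate 2 (-0.23) and without knockout replicate 2 (-0.24). Eif1b encodes a close relative of the scanning factor eIF1. It fell on day 1.5, when it read 919.5 and 902 in knockout cells, against 1143 and 1085 in controls (log2 fold change -0.29 ± 0.053, adjusted p = 0.011), and it had 0.14 on day 3 and -0.10 on day 6 with no call. That call was lost without control replicate 1 (-0.25), knockout replicate 1 (-0.30) or knockout replicate 2 (-0.28). Its effect differed between days 1.5 and 3 (0.43 ± 0.076, adjusted p = 0.0062).

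Among genes of eIF2 and of proteins that also deliver initiator tRNA, 3 of 5 fell on day 6, where 15.3% of all genes did. Eif2s3x on chromosome X encodes the gamma subunit of eIF2, which binds GTP and the tRNA. It read 5637 and 5856 in knockout cells, against 7349 and 7534 in controls on day 6, with the knockout arrays below. On day 1.5 it read 6690.0 and 6815 in knockout cells, against 7527 and 7686 in controls, and on day 3 7098 and 7039 in knockout cells, against 7513 and 8035 in controls. The knockout arrays were the lower pair on all days, and the log2 fold changes were -0.17, -0.14 and -0.37 on days 1.5, 3 and 6, of which the last passed (SE 0.052, adjusted p = 5.9e-04). Its other probe sets gave -0.38 and -0.74 on day 6, both past the threshold. Eif1ax and Eif2s3x were the 2 members on chromosome X. Eif2s3y, the copy on chromosome Y, was too dim to read.

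Eif2s2, the beta subunit, did not follow the gamma subunit by its tested probe set. It read 17328 and 17498 in knockout cells, against 16806 and 16786 in controls on day 6, a log2 fold change of 0.05 ± 0.047 (adjusted p = 0.47). Of its other probe sets, the one averaging 2764 gave -0.19 on day 6 and passed as lower. Those averaging 6924 to 9686 gave 0.02 to 0.05, and one averaging 109 gave 0.32, all with no call. Eif2a, a separate protein that can bring initiator tRNA without GTP-bound eIF2, read 1252 and 1307 in knockout cells, against 1619 and 1633 in controls and fell on day 6 (-0.35 ± 0.054, adjusted p = 0.0011). The 2 knockout arrays lay below both controls. On day 1.5 its log2 fold change was -0.03, and the difference between days 6 and 1.5 passed (-0.32 ± 0.076, adjusted p = 0.018). Eif2d, which acts in reinitiation and in recycling of ribosomes, read 2582 and 2694 in knockout cells, against 3118 and 3006 in controls on day 6 and fell (-0.22 ± 0.052, adjusted p = 0.011). Its next brightest probe set, at an average of 1199.8, gave -0.27 and passed, and those at 507 and 65.8 gave -0.19 and -0.03. In the dim range, the one at 18.6 gave 0.81 and passed the other way, and the one at 22.3 gave 0.20. With these dim probe sets included the mean was 0.05. On day 6 the call also ended without control replicate 1 (-0.19) and without knockout replicate 1 (-0.18).

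The exchange factor eIF2B had subunits that moved in both directions. It has catalytic subunits, gamma (Eif2b3) and epsilon (Eif2b5), and regulatory subunits, alpha (Eif2b1), beta (Eif2b2) and delta (Eif2b4), which sense phosphorylated eIF2. Eif2b4 was the member called higher on every day. It read 2356 and 2553 in knockout cells, against 2129.9 and 2059 in controls on day 1.5, 2676 and 2517 in knockout cells, against 1621 and 1604 in controls on day 3 and 2624 and 2567 in knockout cells, against 2077 and 2050.2 in controls on day 6. The knockout arrays were above the controls each time, and within knockout cells the level changed by 0.08 between days 1.5 and 6, with no call. The log2 fold changes were 0.23 ± 0.057, 0.69 ± 0.057 and 0.33 ± 0.057 on days 1.5, 3 and 6 (adjusted p = 0.038, 5.3e-05 and 0.002). The day 3 value was 0.32 against the controls of days 1.5 and 6 (adjusted p = 0.0018), close to the day 6 value. The day 1.5 call was lost without any one of the 4 arrays of that day, with values of 0.17 to 0.29. Eif2b4 had 1 probe set.

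Eif2b3 read 906 and 876 in knockout cells, against 1213 and 1232 in controls on day 6, and the 2 groups were far apart for this gene. On day 1.5 it had read 1233 and 1246 in knockout cells, against 1179 and 1177 in controls and on day 3 1095 and 1074 in knockout cells, against 1192 and 1113 in controls. It fell on day 6 (-0.46 ± 0.051, adjusted p = 1.6e-04), and the effect differed from that of day 1.5 (-0.53 ± 0.073, adjusted p = 0.0012). Within knockout cells it was lower on day 3 than on day 1.5 (-0.19) and lower again on day 6 (-0.28). Eif2b5 read 1986 and 2100.3 in knockout cells, against 2424 and 2541 in controls on day 6 and fell (-0.28 ± 0.059, adjusted p = 0.0053), with knockout arrays below. Its only other probe set is dim, averaging 18.8, and gave 0.15, and the mean of both was -0.07 with no call. By their brightest probe sets, both catalytic subunits had lower RNA on day 6 while the delta subunit had more. Eif2b1 and Eif2b2 were not called, at -0.14 and 0.03.

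Eif2b4 is shown with its promoter because its RNA was higher on all 3 days and because the window holds the letters ACTACA, then 2 bases of any kind, then TCCCA. These letters belong to the motif known for Ronin binding and also to that of the zinc finger protein Zfp143. The letters were searched on both strands, in windows from 250 bases before to 50 after each RefSeq start. In the stretches below, from RefSeq on GRCm38.p6 and written 5′ to 3′ along the gene's strand, capitals mark the match or its reverse complement. All 3 genes lie on the minus strand, and the stretches span chr5:31193175-31193287 for Eif2b4, chr2:154892919-154893031 for Eif2s2 and chr7:126566406-126566518 for Eif3c.
Eif2b4: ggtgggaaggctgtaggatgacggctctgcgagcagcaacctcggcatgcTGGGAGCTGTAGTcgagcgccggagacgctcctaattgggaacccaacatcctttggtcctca
Eif2s2: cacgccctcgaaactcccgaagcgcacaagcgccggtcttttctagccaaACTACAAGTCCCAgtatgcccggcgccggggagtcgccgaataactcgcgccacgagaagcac
Eif3c: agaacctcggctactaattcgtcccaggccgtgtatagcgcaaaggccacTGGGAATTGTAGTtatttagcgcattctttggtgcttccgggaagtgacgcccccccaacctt
Relative to the RefSeq start, the match lies at -98 to -86 in Eif2b4, at -75 to -63 in Eif2s2 and at -102 to -90 in Eif3c. Of 38 members with a window these 3 held it, as did 458 of 27025 genes with a window in all (1.69%). By their tested probe sets, Eif2s2 and Eif3c were not called on day 6. Other probe sets of Eif3c (-0.20 and -0.23) and of Eif2s2 (-0.19) passed as lower, and the rest were not called. Of the 14 members that fell on day 6, 11 had a window, and these letters were in 0 of the 11.

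**Figure D3:**
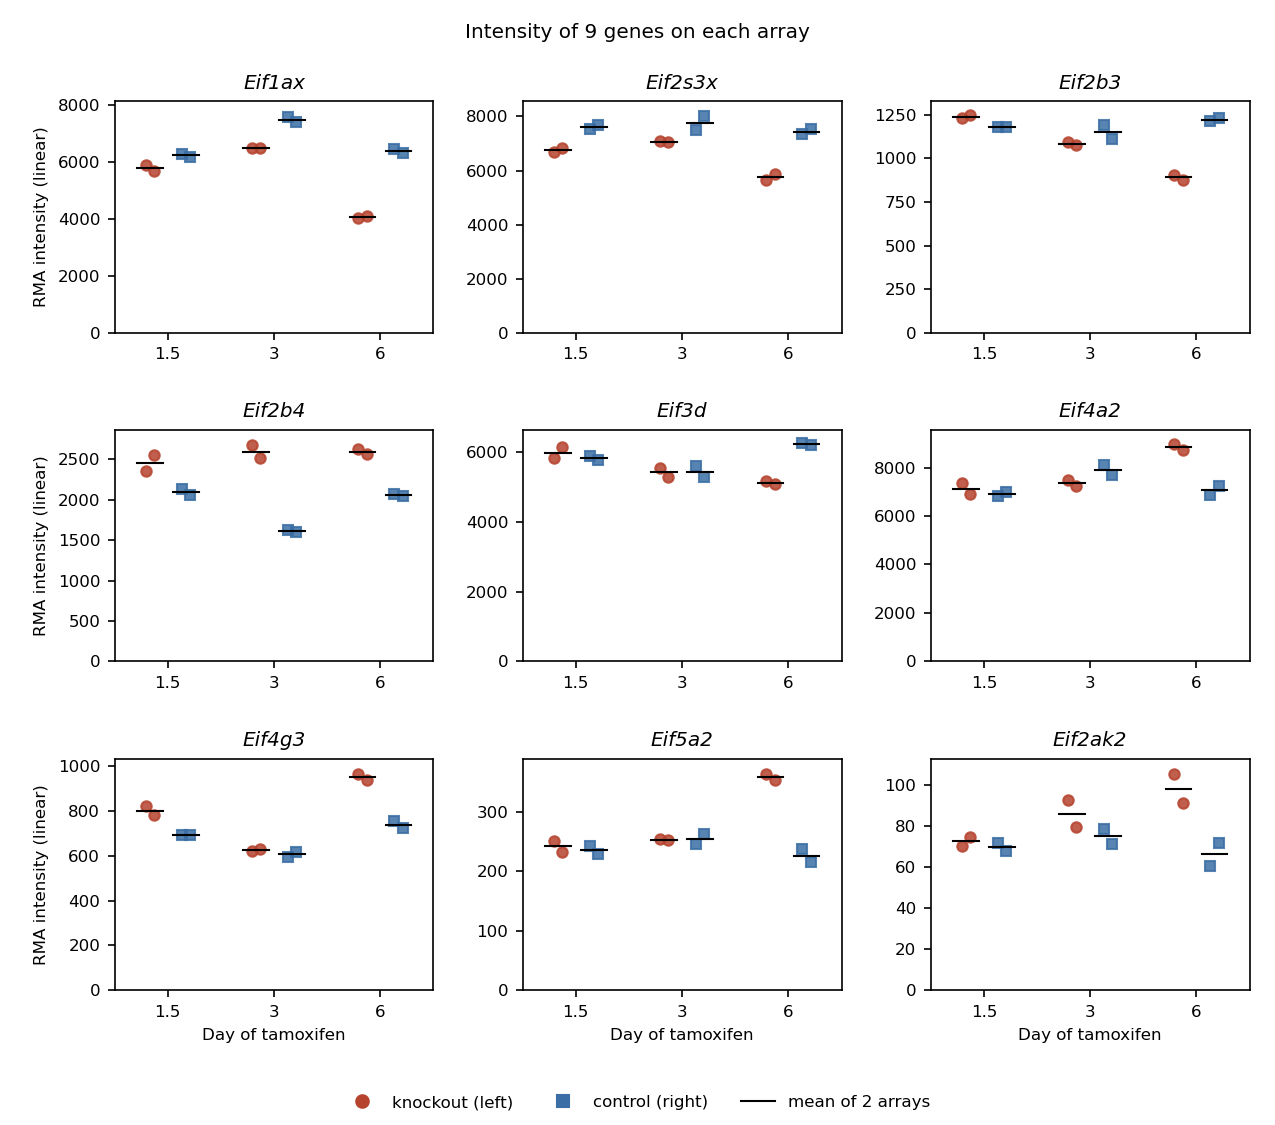
RMA intensity of 9 members in each array on days 1.5, 3 and 6, knockout cells at the left of each pair and controls at the right, with black lines at the mean of 2 arrays. Eif1ax, Eif2s3x, Eif2b3 and Eif3d lie below controls on day 6, and Eif2b4, Eif4a2, Eif4g3, Eif5a2 and Eif2ak2 lie above them.

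Of the 4 eIF2 alpha kinases, 2 rose on day 6, where 17.2% of all genes did, and the median of the 4 was 0.154. Eif2ak2, the kinase PKR that binds double-stranded RNA and is induced by interferon, read 105 and 91.2 in knockout cells, against 60.5 and 71.6 in controls. The groups did not overlap although the gene is dim. It rose by 0.57 ± 0.11 (adjusted p = 0.0034), the difference from day 1.5 passed (0.51 ± 0.16, adjusted p = 0.048), and its other probe sets gave 0.15 (average 67.5, no call) and 0.78 (average 57.5, in the dim range, past the threshold). Eif2ak3, the kinase PERK of the endoplasmic reticulum stress response, read 573 and 531 in knockout cells, against 461 and 453 in controls on day 6 and rose by 0.27 ± 0.065 (adjusted p = 0.01). Its other probe sets averaged 18.2 and 11.8, both in the dim range, and the mean over the 3 was -0.02. On day 6 its call ended without control replicate 2 (0.26) and without knockout replicate 1 (0.22). Eif2ak1 had 0.04 on day 6 and Eif2ak4, the amino acid sensor GCN2, had -0.03, with overlapping arrays. Phosphorylation of eIF2 alpha was not measured, and RNA of a kinase does not give its activity.

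All 11 eIF3 subunits among the members had log2 fold changes below 0 on day 6. Of the 11, 3 passed as lower, where 15.3% of all genes did. The values ran from -0.282 to -0.008 with a median of -0.120. Probe sets that carry the symbols of both Eif3j1 and Eif3j2, outside these 11, gave -0.45, -0.56 and -0.73 on day 6 and passed. The knockout arrays lay below both control arrays for 10 of the 11, with no share of all genes to set beside this. On day 3 the values spread over both sides of 0, from -0.157 to 0.147, with a median of -0.015. Eif3d, the subunit that can bind the cap of selected mRNAs, read 5166 and 5079 in knockout cells, against 6255 and 6199 in controls on day 6, with the knockout arrays clearly the lower pair. It fell (-0.28 ± 0.055, adjusted p = 0.0037), and its effect differed from those of day 1.5 (-0.32) and day 3 (-0.28), both past the threshold. A dim probe set of Eif3d, averaging 23.3, gave -0.05, and the mean of both was -0.17 with no call. Eif3m read 2568 and 2474 in knockout cells, against 2947 and 3103 in controls and fell (-0.26 ± 0.051, adjusted p = 0.0038). Eif3f read 8831 and 8712 in knockout cells, against 9784 and 9589.6 in controls, and its fall of -0.14 ± 0.046 (adjusted p = 0.039) was lost without any one of the 4 day 6 arrays, with values of -0.16 to -0.13. Eif3f and Eif3m belong to 1 module of the complex together with Eif3h, which had -0.03 and no call.

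Among the other subunits, Eif3a, the largest scaffold subunit, had -0.01 with overlapping arrays. Eif3c read 11318 and 11198 in knockout cells, against 12462 and 12202 in controls, and its log2 fold change was -0.13 ± 0.05 (adjusted p = 0.076), while its other bright probe sets gave -0.20 and -0.23 and passed in a test over all probe sets. Eif3b had -0.15 on day 6 without a call, yet its effect changed between days 3 and 6 by -0.30 ± 0.083 (adjusted p = 0.04). Eif3e, Eif3i, Eif3k and Eif3l lay between -0.12 and -0.06.

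The eIF4 group, which works at the cap, had 2 of 10 members higher and 2 lower on day 6. These counts lay near the shares of all genes, 17.2% higher and 15.3% lower. The helicase gene Eif4a2 read 8989 and 8712 in knockout cells, against 6854 and 7257 in controls, and knockout arrays lay above the controls. It rose by 0.33 ± 0.058 (adjusted p = 0.0022), after 0.04 on day 1.5 and -0.10 on day 3. Its close relative Eif4a1, the other cap-complex helicase, read 16593 and 16538 in knockout cells, against 16138 and 15866 in controls, a log2 fold change of 0.05 ± 0.046 (adjusted p = 0.47). Eif4g3, a scaffold that joins eIF4E to eIF4A, rose on day 1.5 and on day 6. It read 823 and 781 in knockout cells, against 692 and 694 in controls on day 1.5, 621 and 633 in knockout cells, against 595 and 618 in controls on day 3 and 967 and 941 in knockout cells, against 758 and 723 in controls on day 6. In knockout cells it thus dipped on day 3 (-0.36 against day 1.5) and then climbed (0.61 against day 3). The knockout effects were 0.21 ± 0.053 on day 1.5 and 0.37 ± 0.053 on day 6 (adjusted p = 0.038 and 6.6e-04), and the first was lost without any one of the 4 arrays of its day, with values of 0.17 to 0.25. The other probe sets of Eif4g3 average 25.5 to 65.2, and the mean over all of them was 0.06 on day 6.

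Eif4e, the cap-binding protein itself, read 4166 and 3952 in knockout cells, against 3464 and 3412 in controls on day 3 and rose by 0.24 ± 0.052 against those controls (adjusted p = 0.0094). A probe set averaging 309 gave -0.30 on the same day and passed the other way, and without knockout replicate 1 of day 3 the call was lost (0.20). The mean over its probe sets on day 3 was 0.05. On day 6 Eif4e had -0.12 and no call, and it read 4084 and 3893 in knockout cells, against 4399 and 4244 in controls. Its next brightest probe sets gave -0.18 and -0.48 on that day and both passed, and the mean over all of them was called lower (-0.23, adjusted p = 0.0094 by limma). Eif4e3, a relative that binds the cap with lower affinity, was dim throughout. It read 62 and 53.6 in knockout cells, against 70.8 and 93.8 in controls on day 3 and 54.1 and 54.9 in knockout cells, against 69.2 and 73 in controls on day 6, and the knockout arrays were the lower pair on both days. Against the controls of the other days Eif4e3 had -0.16 in knockout cells of day 3, with no call (adjusted p = 0.31 by limma). Against same-day controls it fell on both days, with -0.50 ± 0.12 and -0.38 ± 0.12 (adjusted p = 0.018 and 0.041). The day 3 value was -0.29 without control replicate 2 and -0.39 without knockout replicate 2, and the day 6 value ranged from -0.42 to -0.34 without any one of its arrays, with the call lost each time.

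Eif4b, a cofactor of the helicase, read 4346 and 4395 in knockout cells, against 4901 and 4895 in controls on day 3 and 4022 and 4122 in knockout cells, against 4479 and 4484 in controls on day 6. Against the controls of the other days Eif4b had -0.05 in knockout cells of day 3, with no call (adjusted p = 0.35 by limma). The knockout arrays were lower than same-day controls on both days. These falls were small, at -0.16 ± 0.045 and -0.14 ± 0.045 (adjusted p = 0.028 and 0.043). Both calls were lost without any one of the arrays of their day, with values of -0.17 to -0.16 and -0.16 to -0.12. Its other probe sets gave -0.11 with no call and -0.24, which passed. Eif4h, with a similar role, had 0.07 on day 6, and Eif4g2, a scaffold that lacks the eIF4E site, had 0.09. Eif4e2, a cap-binding protein that represses translation, had -0.19 without a call. Its probe set of nearly the same brightness, averaging 2039.8, gave -0.24 and passed, while one averaging 359 gave 0.28 and passed the other way, as did a dim one (0.27). The tested probe set of Eif4a3, of the exon junction complex, was too dim to read. A probe set averaging 5647 that carries the symbols Gm5576 and Eif4a3 gave 0.22 on day 3, which passed, and -0.0088 on day 6 with no call.

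All 3 eIF4E binders among the members lay below 0 on day 6, with a median of -0.125. Of the 3, 1 was called lower, where 15.3% of all genes were. Both knockout arrays lay under both control arrays for each, again with no share of all genes beside this. Eif4ebp1 read 10181 and 10506 in knockout cells, against 10891 and 10892 in controls on day 6, a log2 fold change of -0.07 ± 0.05 (adjusted p = 0.31). Eif4ebp2 read 2697 and 2598 in knockout cells, against 3001 and 2919 in controls, and its fall of -0.16 ± 0.054 (adjusted p = 0.048) was lost without any one of the 4 day 6 arrays, with values of -0.19 to -0.13. Its probe sets averaging 150.1 and 131 gave -0.38, which passed, and -0.37, which did not. A dim one at 23.9 gave 0.30 and passed the other way. Eif4enif1, which carries eIF4E into the nucleus, had -0.12 with no call. A probe set that carries the symbols Ankhd1 and Eif4ebp3, averaging 481, gave 0.29 on day 6 and passed as higher.

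At the late steps 1 gene stood out. Eif5a2, a paralogue of Eif5a with a narrow expression range in normal tissue, read 251 and 234 in knockout cells, against 242 and 230.0 in controls on day 1.5 and 255 and 252 in knockout cells, against 246 and 263 in controls on day 3. On day 6 it read 364 and 355 in knockout cells, against 238 and 215 in controls, so that both knockout arrays lay well above every control. It rose by 0.67 ± 0.068 on day 6, or 1.59-fold (adjusted p = 8.2e-05), after 0.04 and -0.01 on days 1.5 and 3. The day 6 effect differed from both (0.63 ± 0.096 and 0.68 ± 0.096, adjusted p = 0.0019 and 0.0022), and a dimmer probe set gave 0.61 and passed. Eif5a itself, which helps ribosomes through difficult peptide bonds and carries the amino acid hypusine, read 18258 and 18512 in knockout cells, against 19085 and 19651 in controls on day 6 and had a log2 fold change of -0.07 ± 0.046 (adjusted p = 0.26). Eif5, which triggers GTP hydrolysis on eIF2, had -0.05, and Eif5b, which joins the subunits, had -0.0035, both with overlapping arrays. Of the other bright probe sets of Eif5, the one averaging 4443 gave -0.08 with no call, and those averaging 2622 and 2284 gave -0.24 and -0.59 and passed as lower (adjusted p = 0.018 and 0.048 by limma over all probe sets). Other probe sets of Eif5b, averaging 373 and 101, gave -0.33 with no call and 0.51 on day 6, and the latter passed as higher. On day 3 the probe set averaging 101 gave 0.58 and also passed. Eif6 had -0.11 on day 6 with no call.

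The change of the knockout effect between days was tested as such. Between day 3 and day 6 the effect shifted down in 12 members and up in 3, where 16.4% of all genes were called, 8.75% lower and 7.69% higher. Between day 1.5 and day 3 it shifted up in 5 (15% of all genes called, 7.62% higher and 7.34% lower), and these were Eif1b, Eif2ak1, Eif2b4, Eif4e and Eif6. In controls these 5 were lower on day 3 than on day 1.5, with log2 differences of -0.29 to -0.49, and both tests use those arrays. Between days 1.5 and 6, between whose controls limma called no member, 5 members shifted down and 3 up, where 19.3% of all genes were called, 10% lower and 9.32% higher. Median centring made this 8 down and 1 up. On the deposited scaling the shifted members were Eif1ax, Eif2a, Eif2b3, Eif3d and Eif3m downward, and Eif2ak2, Eif4a2 and Eif5a2 upward. Within knockout cells alone, 9 members were lower and 5 higher on day 6 than on day 1.5 (30.2% of all genes called, 14.3% lower and 15.9% higher). The lowest was Eif1ax (-0.51) and the highest Eif5a2 (0.57). Between days 1.5 and 3, knockout cells had 7 members lower and 1, Eif1ax, higher on the later day (20.6% of all genes called, 13.7% lower and 6.97% higher). This was 12 lower and 0 higher with median centring, and 5 and 2 with quantile normalization. Between days 3 and 6 they had 5 lower and 6 higher on the later day (33.5% of all genes called, 13% lower and 20.5% higher), or 7 lower and 4 higher with quantile normalization, and the furthest apart were Eif1ax (-0.68) and Eif4g3 (0.61). These comparisons share arrays with those of each day and are not separate evidence.

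Genes that work beside the initiation factors were listed by role. Partners of initiation without an Eif symbol counted 4 higher and 6 lower of 25 on day 6, with a median of -0.070. These were 16% and 24% of the list, against 17.2% higher and 15.3% lower of all genes. The poly(A)-binding protein Pabpc4 (-0.72 ± 0.051), the eIF5 mimic Bzw2 (-0.66 ± 0.061) and Larp1, a repressor of mRNAs for the translation machinery (-0.52 ± 0.049), fell. Impact, an inhibitor of GCN2, rose by 0.45 ± 0.049. Pabpc4 read 3470.3 and 3654 in knockout cells, against 5848 and 5885 in controls on day 6. The mTORC1 list counted 5 higher and 1 lower of 21 (23.8% and 4.76%, median 0.108). Lamtor2, part of the lysosomal Ragulator scaffold of mTORC1, read 4199.8 and 4271 in knockout cells, against 2077 and 2155 in controls and rose on all 3 days (0.47, 0.78 and 1.00). Castor1, an arginine sensor, fell (-0.63 ± 0.079), and the stress-induced inhibitor Sesn1 and the GTPase Rragc rose by 0.36 ± 0.054 and 0.25 ± 0.053.

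Among cytosolic elongation and termination factors 1 of 13 rose and 6 fell on day 6 (7.69% and 46.2%, median -0.137). Of all genes, 17.2% were higher and 15.3% lower on that day. Eef2k, the kinase that inhibits elongation factor eEF2, read 1063 and 1087 in knockout cells, against 433 and 414 in controls and rose by 1.34 ± 0.065. The termination factor Gspt1 (-0.68 ± 0.06), Pelo, which rescues stalled ribosomes (-0.42 ± 0.06), and Eef1e1 of the multisynthetase complex (-0.36 ± 0.051) fell. The probe sets of Eef2k, Gspt1, Pabpc4 and Sesn1 share probes with other transcripts. Mitochondrial translation factors fell in 6 of 9, and all 9 lay below 0 (median -0.198). Mtif2, a mitochondrial initiation factor, fell (-0.36 ± 0.071), as did the elongation and recycling factors Tsfm (-0.31 ± 0.056), Gfm2 (-0.27 ± 0.046) and Tufm (-0.21 ± 0.059). Of 4 enzymes that make hypusine or polyamines, 2 fell (median -0.144), namely the spermidine synthase Srm (-0.37 ± 0.056) and the ornithine decarboxylase Odc1 (-0.15 ± 0.047). Dhps and Dohh, which make hypusine on eIF5A, had -0.14 and -0.13 and were not called. The members' own figures on that day were 12.8% higher and 29.8% lower, with the median of -0.106 given above.

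**Figure D4:**
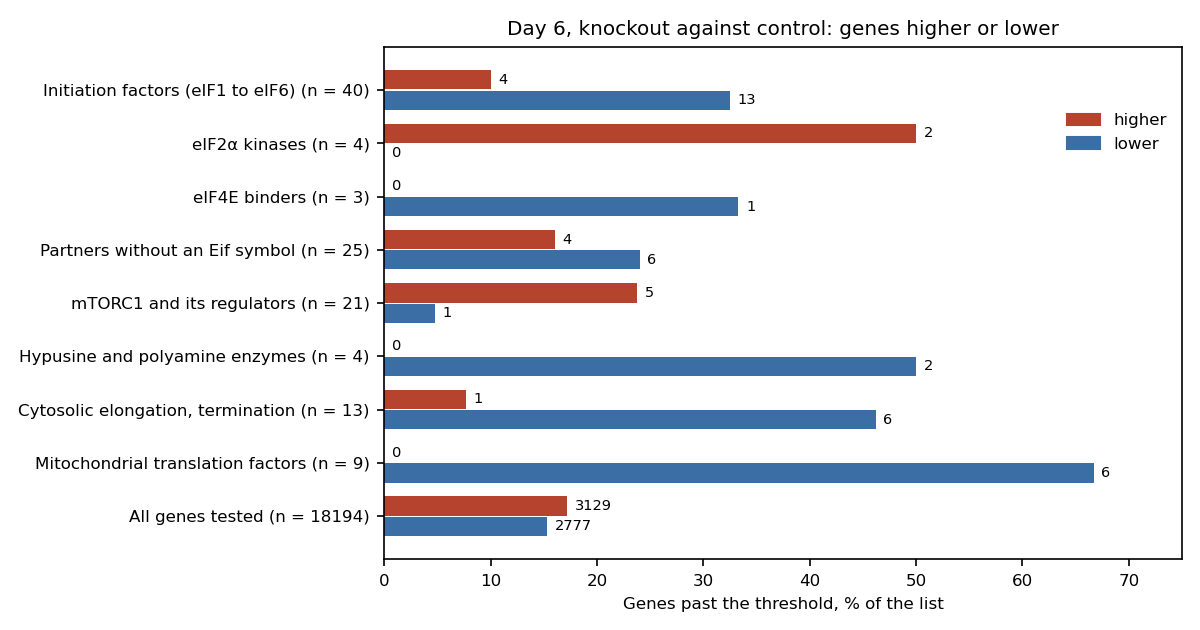
Share of each list past the threshold on day 6, knockout against control, in percent of the measured genes, with red bars for higher, blue bars for lower and the number of genes at each bar. The 40 factors had 4 higher and 13 lower, the 9 mitochondrial factors 6 lower, and all 18194 genes 3129 higher and 2777 lower.

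Markers of embryonic stem cells and of other cell types were read on the same arrays. Of all genes, 17.2% were higher and 15.3% lower on day 6. Of 8 embryonic stem cell markers, none was in the dim range, and their summed intensity on day 6 was 67267 and 67695 in knockout cells, against 65649.8 and 66060.2 in controls. Of the 8, 2 were lower on day 1.5, where 3.98% of all genes were. On day 3, 3 were lower and 1 higher, where 10% and 13.3% of all genes were. Klf4 fell on all days (-0.42, -0.40 and -0.44) and was the 1 marker called on day 6. The median log2 fold change of the 8 on that day was 0.063, and Pou5f1, Sox2 and Nanog were not called. Fibroblast markers summed to 3506 and 3569 in knockout cells, against 2649 and 2870.3 in controls on day 6. Of the 10, 2 were higher and 3 lower, and 7, Col1a1, Col3a1 and Dcn among them, were dim. The median log2 fold change of the 10 was -0.213, below 0 although the sums were higher. Extraembryonic endoderm markers summed to 4446 and 4464 in knockout cells, against 4728 and 4889 in controls, with 1 of 8 higher and 4 lower, and Gata4 and Sox17 were dim. Trophoblast markers summed to 6144 and 6202 in knockout cells, against 6331 and 6467 in controls, with 1 of 6 higher. The median log2 fold change of the 6 was 0.122, above 0 although the sums were lower. Neural markers summed to 502 and 514 in knockout cells, against 442 and 452 in controls, with 2 of 4 higher, Sox1 at 1.62 among them, and both risen genes were dim. The part of such cells in the changes of the initiation factors was not tested. In samples of whole cultures, fewer cells of a type and less RNA per cell cannot be told apart.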

How the data were processed

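RNA of 12 samples was hybridised to Affymetrix Mouse Genome 430 2.0 arrays, 2 per group. The deposited values are RMA intensities per probe set, made by the authors with a version that is not given, per the submitters' processing notes. RMA corrects background, brings all arrays to 1 distribution and summarises probes, so a change of total RNA per cell is not visible. The values are linear although a log2 scale had been assumed for the tests, so log2 was taken here from the deposited intensities. Of 45101 probe sets, 34958 carried 1 symbol, and each of 18194 genes was read by its brightest probe set (133 probe sets for the 47 members). No dim genes were removed. limma 3.58.1 in R 4.3.3 fitted a mean per group over all arrays, with 6 residual and 3.04 prior degrees of freedom, and p-values were adjusted over all genes by the Benjamini-Hochberg method. It was tested on simulated data. Values of other probe sets were adjusted over all probe sets with 1 symbol, and those of probe sets with several symbols over all 45101. Precision is limited by having 2 arrays a group. The labels do not say whether both came from independent cultures, so the p-values cover the spread between the samples, which may be technical.

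Values in each array are given for members called on day 3 or 6 and for the brightest member of each class, and up to 4 genes are named per neighbouring list. The members, lists and rules were chosen with earlier results of these data known. Of 77 listed neighbouring genes, 72 were measured. Same-numbered arrays of a day did not deviate together (correlation of deviations -0.0573 to 0.0278 over 3 pairs), so replicate numbers were not used as pairs. Alternatives were the replicate block, only the arrays compared, a trended and robust eBayes, array weights, a filter on dim genes, other probe set choices, median centring, quantile normalization, other controls for day 3 and leaving out each array. Promoter windows come from RefSeq on GRCm38.p6. Figures were drawn with matplotlib 3.10.9.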

Additional observations from a re-analysis of the deposited data

Results flagged for a closer look

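The knockout effect of several members differed between days by a limma test of the difference itself, at an adjusted p under 0.05. These differences are changes in the log2 fold change, knockout over control, later day minus earlier day. Between days 1.5 and 3 the effect was higher on day 3 for Eif2b4 (0.46), Eif1b (0.43), Eif6 (0.36), Eif2ak1 (0.34) and Eif4e (0.27).

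Between days 3 and 6 it was higher on day 6 for Eif5a2 (0.68), Eif4a2 (0.43) and Eif4g3 (0.32). It was lower on day 6 for Eif1ax (-0.45), Eif6 (-0.40), Eif4e2 (-0.38) and Eif2b3 (-0.37). Both Eif2b4 and Eif2b5 had -0.36, and Eif1ad and Eif4e had -0.35. Smaller shifts were those of Eif2ak1 (-0.32), Eif3b (-0.30), Eif3d (-0.28) and Eif2d (-0.27). These tests use the day 3 controls, in which 17 members were lower than on day 1.5, and the part of that dip in the differences was not tested for each gene.

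Between days 1.5 and 6 the effect was higher on day 6 for Eif5a2 (0.63), Eif2ak2 (0.51) and Eif4a2 (0.29). It was lower on day 6 for Eif1ax (-0.55), Eif2b3 (-0.53), Eif2a (-0.32), Eif3d (-0.32) and Eif3m (-0.25).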

How the results depend on the processing

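Counts below are of the 47 members past the threshold. For knockout against control, leaving out any 1 array gave 0 to 1 members on day 1.5 (3 with all arrays), 4 to 5 on day 3 (7) and 13 to 14 on day 6 (20), and 12 of the 20 members of day 6 were called each time. For each comparison only arrays of the groups compared were left out, and a group left with 1 array is assumed to vary like the others. For the change of effect the ranges were 2 to 7 (day 3 minus day 1.5), 6 to 15 (day 6 minus day 3) and 3 to 6 (day 6 minus day 1.5). For controls they were 11 to 16, 9 to 16 and 0 to 0 (day 3 against 1.5, 6 against 3 and 6 against 1.5), and for knockout cells 2 to 5, 6 to 10 and 8 to 12 in the same order.

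A replicate block over all arrays gave 1 on day 1.5 and 5 for day 6 minus day 1.5. A replicate block within each day gave 0 on day 1.5, 4 on day 3, and 2, 7 and 3 for the changes of effect (day 3 minus 1.5, 6 minus 3, 6 minus 1.5). It moved no other count by over 1.5 times. With only the arrays compared the counts were 0 on day 1.5, 2 on day 3 (Eif2ak1 and Eif2b4), 2 for day 3 minus day 1.5, 9 for day 6 minus day 3, 8 and 5 for controls (day 3 against 1.5, 6 against 3) and 3 for knockout cells of day 3 against 1.5. The trended and robust eBayes called more, namely 8, 17 and 31 on days 1.5, 3 and 6, 16, 23 and 16 for the changes of effect, 26 and 3 for controls of day 6 against days 3 and 1.5, and 14, 18 and 23 for knockout cells (day 3 against 1.5, 6 against 3, 6 against 1.5). Without the dimmest 40% of genes the counts were 6 on day 1.5, 14 on day 3, 10 for day 3 minus day 1.5, 13 for day 6 minus day 1.5, 1 for controls of day 6 against 1.5 and 22 for knockout cells of day 6 against 1.5. Averaging all probe sets of a gene gave 3 for knockout cells (day 3 against 1.5). Array weights, median centring and quantile normalization moved no total by over 1.5 times, but some counts by direction. Array weights gave 8 downward shifts for day 6 minus day 1.5 (5 with all arrays equal) and 14 lower members in knockout cells of day 6 against 1.5 (9). Median centring gave 8 down and 1 up for day 6 minus day 1.5, 12 lower and 0 higher in knockout cells of day 3 against 1.5, and 2 higher in controls of day 3 against 1.5 (4) and 1 lower of day 6 against 3 (2). Quantile normalization gave 5 lower in controls of day 6 against 3, and 2 higher in knockout cells of day 3 against 1.5 (1). The cause of these shifts was not tested.

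Signs of members called against same-day controls turned on day 6 for Eif2ak3 (-0.0161) and Eif2d (0.0514) with the mean of all probe sets. On day 3 they turned against the controls of days 1.5 and 6 for Eif1ax (0.0435), Eif2ak1 (-0.136), Eif4e (-0.0699) and Eif6 (-0.0238). That comparison called 17 members. In every one of 14 alternatives, Eif1ax, Eif2a, Eif2ak2, Eif2b3, Eif2b4, Eif2s3x, Eif3m, Eif4a2 and Eif5a2 kept their day 6 call, and Eif2b4 kept its day 3 call. Eif2b3, Eif2b4 and Eif4a2 had a single probe set each, so the other probe set choices reused the same values for them. Among these genes, the choice of a probe set without a name suffix could change the values of Eif1ax and Eif2s3x only. Quantile normalization also ended the day 6 calls of Eif4b, Eif4e3 and Eif4ebp2. With 2 arrays a group, changes as small as those of Eif3f, Eif4b and Eif4ebp2 lie at the limit of what was called.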
